A study of Mus musculus with 18 samples.

Results

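Circular RNAs (circRNAs) of mouse liver were compared between carbon tetrachloride (CCl4) cirrhosis and its corn oil control. The members were all 474 circRNAs of the deposited table, measured in 12 of the 18 libraries of the study, 6 of the Cirrhosis group and 6 of the Control group. No measured value entered this choice. Control mice received corn oil into the peritoneum, 10 µl per g of body weight and 2 times a week, and distilled water by mouth. Cirrhosis mice received the same volume of 10% CCl4 in corn oil and the same water. CCl4 is a toxin that hepatocytes activate, and repeated doses scar the liver. The remaining 6 libraries, Cirrhosis-PTH, came from mice given 10% CCl4 and the medicine Pien Tze Huang at 0.25 mg per g a day. They entered the model to estimate the spread. They also counted where a constant, a scaling or a detection rule below was set over all 18 libraries. All mice were male C57BL/6, bought at 6 weeks of age and treated for 12 weeks. The labels describe 15 treated mice per group, of which 6 per group were sequenced. The separate mice are the replicates, and a measure of scarring in each liver was not used here.

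A circRNA is a closed RNA made by back-splicing, in which a downstream splice donor meets an upstream splice acceptor. It has no free ends, resists exonucleases and often outlives the linear transcript of its host gene. Only reads that cross the back-splice junction set a circRNA apart from the linear RNA of the same exons, so its level is counted from those reads. Of the 474 circRNAs, 440 began and ended at exon boundaries of GENCODE M21 (GRCm38), 27 matched at 1 end and 7 at none. The 435 that could be placed in 1 transcript held a median of 3 exons and 306 spliced bases. Protein-coding genes hosted 459 of them.

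The junctions of 11 circRNAs are shown because the results below describe them in detail, among them both circles of Rasa2, Snx5 and Adgre1. Each is the last 15 bases of the circle in lower case followed by its first 15 bases in capitals, so that the change of case marks the back-splice. They were read from GENCODE M21 transcripts, 5′ to 3′ on the host's strand.
Rasa2, exons 2 to 4 (chr9:96602713-96611499, minus strand): aattcagaagttcagATGAAGCAAAAAATT
Rasa2, exons 2 to 5 (chr9:96591950-96611499, minus strand): gcagcttgttgtacaATGAAGCAAAAAATT
Snx5, exons 6 to 9 (chr2:144255340-144257993, minus strand): cacagtcatcaaaaaTGAGTATCTCGCTGT
Snx5, exons 8 to 9 (chr2:144255340-144255604, minus strand): cacagtcatcaaaaaGAGGTGGATGACTTC
Eed, exons 9 to 11 (chr7:89955531-89962361, minus strand): tcctcataaagccaaGCCATTTATTTCCCA
Adgre1, exons 11 to 12 (chr17:57419322-57420524, plus strand): agacggagtacctagGCTTCCTTCTGTACA
Adgre1, exons 6 to 7 (chr17:57406834-57408495, plus strand): atgggaattgtacagATGAAGATGAATGTG
Pvt1, exon 2 (chr15:62107148-62107465, plus strand): agctccctctaaaatGTCTGATTTTCTTAA
Prim2, exons 6 to 7 (chr1:33628395-33630433, minus strand): tctaaggctttggcaATCAGTGACGAGGAG
Ube2g2, exons 2 to 3 (chr10:77630726-77630894, plus strand): ggaggcattgatcatAATTAACCCTGAATC
Atrnl1, exons 22 to 24 (chr19:57751630-57755618, plus strand): cctattaaaatacagACAGTCTTCTGATTG
The capitals of both Rasa2 junctions are the same because both circles start at exon 2, and the lower case of both Snx5 junctions is the same because both end at exon 9. Of 420 junctions of this kind that could be built, 0 occurred in a linear transcript of GENCODE M21.

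Reads were few. The 12 libraries held 20967 back-splice reads, 794 in Control 1 to 2384 in Cirrhosis 5. A single read was worth 0.0849 to 0.37 CPM (reads scaled to a common library total), and 3 reads, the limit that a count of 0 allows in a library, lay at 0.255 to 1.11 CPM. A zero was listed in 31.2% of cells of the table, at most 1 read in 44.4%, and 10 reads or more in 9.58%. Cirrhosis libraries held more back-splice reads than Control libraries, 2020 ± 297 against 1470 ± 416 (mean ± SD, n = 6, exact 2-sided permutation p = 0.026, adjusted p = 0.104 over 4 library measures). The number of circRNAs detected was 325 ± 59.6 in Cirrhosis and 328 ± 44.3 in Control (exact permutation p = 0.926, adjusted 0.926), and their summed CPM was 327 ± 96.6 and 259 ± 91.9 (exact permutation p = 0.24, adjusted 0.481). The 10 most abundant circRNAs took 14.3 ± 2.05% and 13.3 ± 2.72% of the reads (exact permutation p = 0.483, adjusted 0.644). The smallest p this design allows is 0.00216. Cirrhosis 6 stood apart, with 223 circRNAs detected from 2218 reads, against 283 to 376 in the other Cirrhosis libraries, and Control 1 had the fewest reads. Circles of liver genes such as Cyp1a2 and Abcb11 were counted in both groups.

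No circRNA passed the test between Cirrhosis and Control. With limma on log2(CPM + 0.143), 0 of 474 (0%) had a Benjamini-Hochberg adjusted p under 0.05, and the smallest was 0.109. At an unadjusted p under 0.05 there were 58 (12.2%, where 23.7 are expected by chance), 42 higher in Cirrhosis (8.86%) and 16 lower (3.38%). On the reads recovered from the CPM, edgeR's quasi-likelihood test called 0 (0%) at an adjusted p under 0.05, with 39 (8.23%) under 0.05 unadjusted, 30 higher (6.33%) and 9 lower (1.9%). DESeq2 called 1 (0.211%), Ube2g2, with 38 (8.02%) unadjusted. Of the 58, edgeR shared 33 and DESeq2 29. Differences below are therefore given as values, with their SE after ± or with a lower bound where 1 group had 0 reads, in log2(CPM + 0.143), where differences between circRNAs of few reads come out too small. In bulk liver, fewer cells of a type and less RNA per cell cannot be told apart, and neither can more back-splicing and more transcription of the host.

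**Figure D1:**
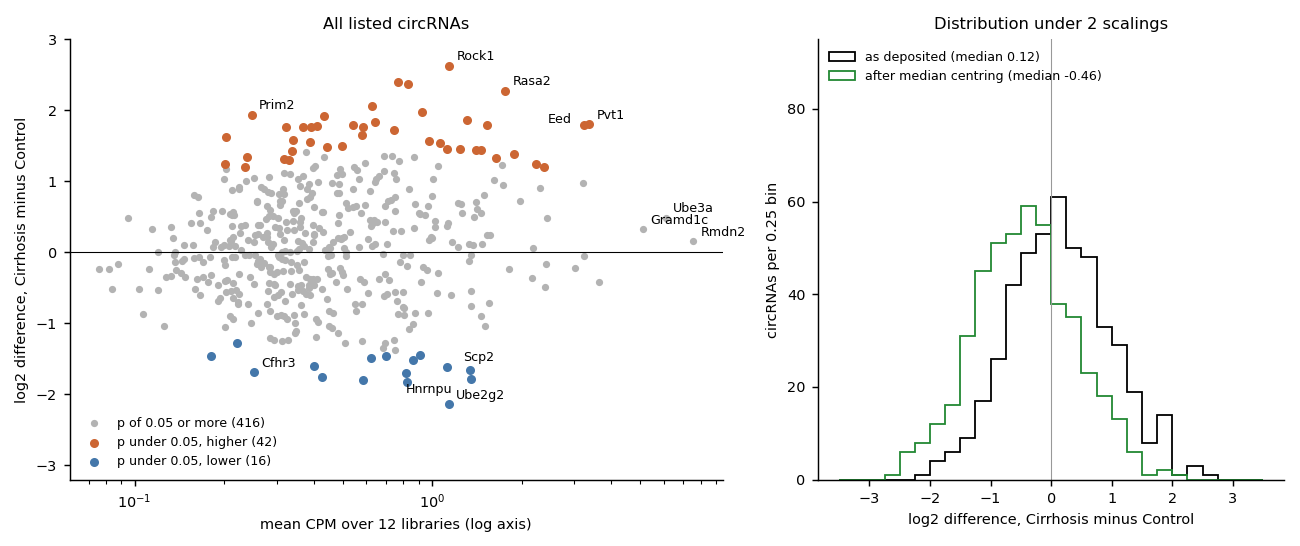
Left, log2 difference (Cirrhosis minus Control, limma) of each of the 474 circRNAs against mean CPM over the 12 libraries on a log axis, with unadjusted p under 0.05 in colour (42 higher, 16 lower). Right, the number of circRNAs per 0.25 of log2 difference as deposited and after median centring. The median is 0.12 as deposited and -0.46 after centring, so the split between higher and lower depends on the scaling.

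The split between higher and lower depended on how libraries were scaled. As deposited, 266 circRNAs (56.1%) were higher in Cirrhosis and the median log2 difference was 0.12. Setting the median of 26 circRNAs, those read in each of the 18 libraries, to the same level in every library (centring) shifted the differences by -0.58, to a median of -0.46 with 28.9% higher. It left 10 circRNAs higher (2.11%) and 68 lower (14.3%) at an unadjusted p under 0.05 in limma, and called 2 (0.422%), Ube2g2 and Hnrnpu. Scaling to the sum of the listed circRNAs gave a median of -0.06 with 48.1% higher. Centring shifted every difference by the same amount, which was smaller than the differences of the 42 higher and the 16 lower circRNAs. Their signs therefore could not change. At an unadjusted p under 0.05 in limma, 10 of the 42 and 16 of the 16 remained, and a downward shift enlarges the lower differences.

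Of 27 marker genes of macrophages, the phagocytes of the liver, 2 hosted 3 circRNAs, and each of the 3 stood higher in Cirrhosis, also after centring. Adgre1 encodes F4/80, the surface protein by which mouse macrophages are recognised. Its circle of exons 11 and 12 was at 0, 0 and 0.575 CPM (lowest, median and highest of 6 libraries) in Control and at 0.184, 1.01 and 3.84 CPM in Cirrhosis. It was read in 2 Control and 6 Cirrhosis libraries, and the groups overlapped through Cirrhosis 6, which held 1 read of it, and Cirrhosis 3. The log2 difference was 2.37 ± 0.73 (SE), with a limma adjusted p of 0.119. Without both Control 1 and Cirrhosis 6, a setting added after the data were seen, it was 2.97 with an adjusted p of 0.0468 in limma, while with each library left out in turn that p was 0.0596 to 0.3. The circRNA of exons 6 and 7 was at 0, 0 and 0.306 CPM in Control and at 0, 0.751 and 1.28 CPM in Cirrhosis. Cirrhosis 6 was at 0 while the other 5 Cirrhosis libraries lay above every Control library. In log2, Cirrhosis minus Control was 1.78 ± 0.66, with a limma adjusted p of 0.229. Mertk encodes a receptor for the uptake of dying cells. A circle of exons 3 and 4 (chr2:128736563-128738369) differed by 1.04 ± 0.73 (limma unadjusted p = 0.156, adjusted p = 0.58). The 3 circles together were at 0, 0.558 and 1.02 CPM in Control and at 0.184, 2.56 and 6.76 CPM in Cirrhosis, and the lowest Cirrhosis value was again Cirrhosis 6. Of 28 hepatocyte marker genes, 5 hosted a circRNA each, 3 higher and 2 lower with a median of 0.38 (-0.2 and 1 higher after centring), and 0 had an unadjusted p under 0.05. Their summed level was 1.12, 2.85 and 4.99 CPM in Control and 1.81, 2.71 and 7.49 CPM in Cirrhosis, so the groups overlapped. Among markers of other cell types, 1 of 26 lymphocyte and leukocyte genes hosted a listed circRNA (Ikzf1, 0.12 ± 0.73, -0.46 after centring) and 1 of 20 stellate cell genes did (Tmem56, -0.41 ± 0.54). None of 19 endothelial, 13 cholangiocyte and 10 erythroid genes did. The part of cell composition in the results that follow was not tested.

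Small GTPase and actin genes set the shape and contraction of cells, and their circRNAs held 4 of the 42 higher and 1 of the 16 lower ones (those shares of all circRNAs being 8.86% and 3.38%). Of 11 in the list, 8 were higher and 3 lower, with a median log2 difference of 0.58 beside 0.12 over all circRNAs, and after centring 6 were higher with a median of 0.0. Rock1 encodes a kinase that drives actomyosin contraction. Its circle of exons 7 to 9 (chr18:10129305-10132272, minus strand) was at 0, 0.0959 and 0.607 CPM in Control and at 0.518, 1.41 and 6.64 CPM in Cirrhosis. Of the Cirrhosis libraries, 5 lay above every Control library, and the highest, Cirrhosis 6, was far above the other 5. The log2 difference of 2.63 ± 0.71 was the largest of all 474 as deposited, and its limma adjusted p was 0.109. With each library left out in turn that p was 0.0488 (without Control 3) to 0.185. The mean CPM was 0.19 ± 0.247 in Control and 2.08 ± 2.27 in Cirrhosis (SD, n = 6), or 1.17 in Cirrhosis without Cirrhosis 6. Dock8 encodes an activator of Cdc42 known from leukocytes. The circRNA of exons 3 and 4 (chr19:25061108-25065459) was at 0, 0 and 0.296 CPM in Control and at 0, 0.819 and 1.66 CPM in Cirrhosis. Cirrhosis 1 was at 0, and the other 5 Cirrhosis libraries lay above every Control library. The log2 difference was 1.92 ± 0.7, with a limma adjusted p of 0.222.

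Arhgap10, a GTPase-activating gene of the same list, hosted a circle of exons 14 to 18 and one of exons 2 and 3. The former (chr8:77344640-77365160) was read 1 time in Control, in Control 3, and 14 times in Cirrhosis, in 6 of 6 libraries at 0.129 to 0.553 CPM. It differed by 1.62 ± 0.62, and the latter (chr8:77450693-77450923), at medians of 0.153 CPM in Control and 0.607 CPM in Cirrhosis, by 1.72 ± 0.73. Their limma adjusted p values were 0.234 and 0.313. Ssh2 encodes a phosphatase that activates the actin-severing protein cofilin, and it went the other way. A circle of exons 3 and 4 (chr11:77393050-77398269) was at 0, 0.234 and 1.48 CPM in Control, and in Cirrhosis it was read 1 time, in Cirrhosis 2. In log2, Cirrhosis minus Control was -1.27 ± 0.55 (limma unadjusted p = 0.0205, adjusted p = 0.313), or -0.85 with an unadjusted limma p of 0.0891 without Control 1, the library with the highest value. Ptk2, the focal adhesion kinase gene, differed by 0.64 ± 0.72.

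Of 12 circRNAs from signalling genes (the TGF-beta, Hippo, Wnt and growth factor pathways), 8 were higher and 4 lower, with a median of 0.39, and 4 were higher after centring. Besides Rock1, Rasa2 was the other with an unadjusted p under 0.05. Rasa2 encodes a GTPase-activating protein that switches Ras off. Its circle of exons 2 to 4, 317 bases of coding sequence, was at 0, 0.75 and 1.15 CPM in Control and at 1.81, 2.44 and 4.24 CPM in Cirrhosis. It was the only circRNA in which every Cirrhosis library lay above every Control library (1 of 474, 0.211%), and none lay wholly below (0%). The log2 difference was 2.28 ± 0.65, with a limma adjusted p of 0.109. Egfr, the epidermal growth factor receptor gene (exons 14 and 15), differed by 0.5 ± 0.68 as deposited and by -0.08 after centring, while its mean CPM was 1.52 in Control and 1.23 in Cirrhosis.

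**Figure D2:**
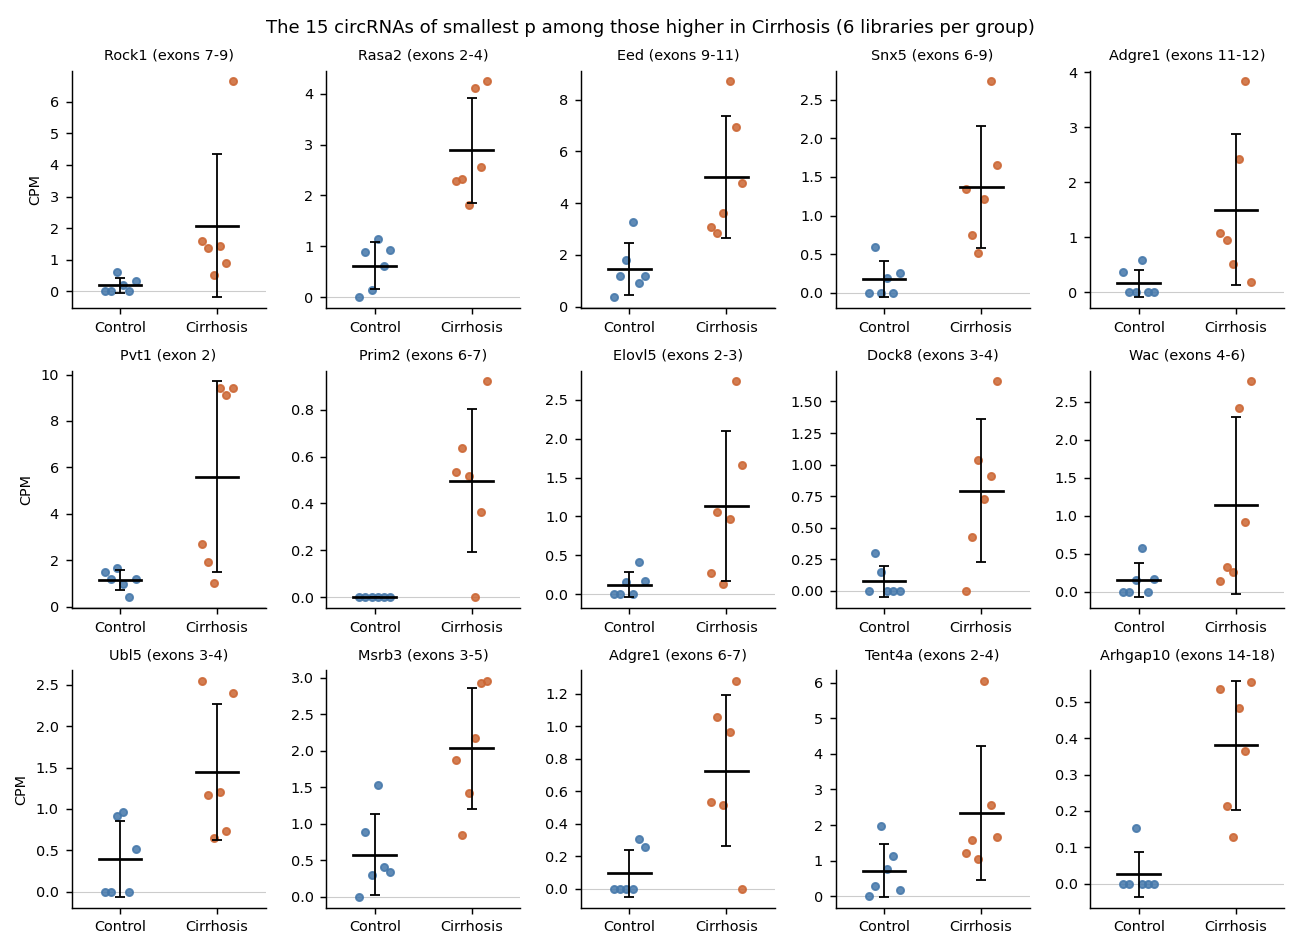
CPM of the 15 circRNAs of smallest p among those higher in Cirrhosis, 1 panel each with its own linear axis, 1 point per library, line for the mean and bar for the SD (n = 6 per group). The groups are apart only for Rasa2 (exons 2 to 4), Prim2 is at 0 in all 6 Control libraries, and 1 high library, Cirrhosis 6, carries much of the Rock1 mean.

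Chromatin and non-coding hosts gave a pair of the more abundant circRNAs among the higher ones. Eed encodes a core subunit of Polycomb repressive complex 2, which reads and spreads a repressive histone mark. The circRNA of exons 9 to 11 was at 0.369, 1.19 and 3.26 CPM in Control and at 2.86, 4.21 and 8.7 CPM in Cirrhosis, from 57 and 178 reads. All 6 Cirrhosis libraries lay above 5 of the Control libraries, and Control 6 lay within the Cirrhosis range. In log2, Cirrhosis minus Control was 1.8 ± 0.54, with a limma adjusted p of 0.119. Pvt1 is a long non-coding RNA gene that lies next to Myc. Its circle is 1 exon, exon 2, of 318 bases. It was at 0.408, 1.19 and 1.67 CPM in Control and at 1.04, 5.91 and 9.43 CPM in Cirrhosis, from 42 and 186 reads. Cirrhosis 4, 5 and 6 lay at 9.13 to 9.43 CPM, while Cirrhosis 1, 2 and 3 lay at 1.04 to 2.68 CPM and the lowest of them was within the Control range. The same 3 libraries had the highest summed CPM of the Cirrhosis group, 385.5 to 435.4 against 206.9 to 293.4, and the part of this in the Pvt1 values was not tested. The log2 difference was 1.81 ± 0.59 (limma adjusted p = 0.157), and 1.23 after centring. Of 16 circRNAs from chromatin and transcription cofactor genes, 9 were higher and 7 lower (2 higher after centring), with a median of 0.19. Eed and Wac, an adaptor gene for histone ubiquitination, were the 2 at an unadjusted p under 0.05, a share of the list close to the 12.2% of all circRNAs. The Wac circle (exons 4 to 6, chr18:7901496-7906044) was at 0, 0.0759 and 0.575 CPM in Control and at 0.134, 0.616 and 2.77 CPM in Cirrhosis (1.84 ± 0.67, limma adjusted p = 0.222). Med13l, of the Mediator complex, differed by 0.49 ± 0.56 as deposited and -0.09 after centring.

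DNA replication, repair and cell cycle genes hosted 6 circRNAs, 5 higher and 1 lower, with a median of 0.87, and 3 were higher after centring. Prim2 encodes the large subunit of the primase that starts new DNA strands. A circle of exons 6 and 7 had 0 reads in Control and 21 in 5 of 6 Cirrhosis libraries, at 0, 0.527 and 0.922 CPM, with Cirrhosis 4 at 0. It was the only listed circRNA with no Control read and a read in 3 or more Cirrhosis libraries (1 of 474, 0.211%). The table lists circRNAs above 0 in at least 9 of 18 libraries, so this circle also had to be read in Cirrhosis-PTH. Taking 3 reads in the whole Control group as the limit, it stood at least 6.97-fold higher, or 4.89-fold without Control 8, the deepest Control library. Its limma adjusted p was 0.222. Ascc3, a helicase gene of DNA alkylation repair (exons 31 to 36, chr10:50748806-50767507), was at 0.102, 0.377 and 0.888 CPM in Control and at 0.53, 1.72 and 2.03 CPM in Cirrhosis. All but 1 of the Cirrhosis libraries lay above the Control range, and the log2 difference was 1.57 ± 0.73 (limma adjusted p = 0.381), with an unadjusted limma p of 0.0785 without Control 7, and above 0.05 without Control 8 too. Tasp1, a protease gene, was the lower one, at -0.56 ± 0.73.

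Membrane trafficking genes hosted 14 circRNAs, 10 higher and 4 lower with a median of 0.28, and 6 higher after centring. At an unadjusted p under 0.05 in limma 2 were higher and 1 lower. Snx5 encodes a sorting nexin that returns cargo from endosomes. Its circle of exons 6 to 9 was at 0, 0.0959 and 0.592 CPM in Control and at 0.518, 1.27 and 2.74 CPM in Cirrhosis, from 6 and 50 reads. Only Cirrhosis 3 lay within the Control range. In log2, Cirrhosis minus Control was 2.4 ± 0.73, with a limma adjusted p of 0.119. Dennd5b, an activator gene of Rab GTPases, had a circle of exons 2 and 3 (chr6:149080806-149084936) at 0.192, 0.869 and 3.7 CPM in Control and at 0, 0.156 and 0.938 CPM in Cirrhosis. The log2 difference was -1.7 ± 0.73 (limma unadjusted p = 0.0193, adjusted p = 0.313), and the unadjusted p in limma reached 0.0783 without Control 1 and was also above 0.05 without Control 3 or Cirrhosis 4. Exoc3l2, outside the list and related to an exocyst subunit gene, stood at 0.192, 0.51 and 1.48 CPM in Control and was at 0 in 4 of 6 Cirrhosis libraries (exons 7 and 8, chr7:19481246-19484734, -1.76 ± 0.72, limma adjusted p = 0.276).

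Of 15 circRNAs from lipid and sterol genes, 11 were higher and 4 lower with a median of 0.29, and 6 were higher after centring. In limma, 2 higher and 1 lower had an unadjusted p under 0.05. Elovl5 encodes an elongase of polyunsaturated fatty acids. The circRNA of exons 2 and 3 (chr9:77957141-77961053, 5' UTR and coding) was at 0, 0.0759 and 0.408 CPM in Control and at 0.129, 1.01 and 2.74 CPM in Cirrhosis (2.06 ± 0.73, limma adjusted p = 0.222). All 6 Cirrhosis libraries lay above the Control mean, while the lowest ones lay within the Control range. Scp2 encodes a sterol carrier and thiolase of peroxisomes. A circle of exons 13 and 14 (chr4:108055439-108063988) was at 0, 1.79 and 5.62 CPM in Control and at 0, 0.318 and 2.37 CPM in Cirrhosis, where 3 libraries were at 0. In log2, Cirrhosis minus Control was -1.66 ± 0.71 (limma unadjusted p = 0.0191, adjusted p = 0.313). The unadjusted p in limma reached 0.0985 without Control 2 and was also above 0.05 without Control 3, Cirrhosis 1, Cirrhosis 4 or Cirrhosis 6. Summed per host, Scp2 differed by -1.98 ± 0.66 (limma adjusted p = 0.174), or by -2.56 after centring (limma adjusted p = 0.00789).

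Of 15 circRNAs from ubiquitin genes, 8 were higher and 7 lower with a median of 0.06, and 5 were higher after centring. At an unadjusted p under 0.05 in limma 2 were higher and 1 lower, beside 8.86% and 3.38% of all circRNAs. The lower one had the smallest p of all lower circRNAs. Ube2g2 encodes a ubiquitin-conjugating enzyme that marks misfolded proteins of the endoplasmic reticulum for degradation. Its circle of exons 2 and 3, 82 bases, was at 0.816, 1.69 and 3.26 CPM in Control and at 0, 0.413 and 1.28 CPM in Cirrhosis, from 67 and 16 reads. Every Cirrhosis library lay below the Control mean, and only Cirrhosis 5 lay within the Control range. The log2 difference was -2.14 ± 0.7 with a limma adjusted p of 0.157. DESeq2 gave an adjusted p of 0.0249 and limma after centring 0.0272, and both scale on circRNAs detected in all 18 libraries. The annotated gene Gm49325 overlaps this locus. Trim33, a ubiquitin ligase gene and 1 of the 2 higher ones, is named after its values were seen. A circle of its exons 2 to 4 (chr3:103310309-103311513) was at 0, 0 and 0.204 CPM in Control and at 0, 0.441 and 0.738 CPM in Cirrhosis, and the groups overlapped (1.35 ± 0.62, limma adjusted p = 0.374).

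RNA-binding and splicing genes hosted 22 circRNAs, 12 higher and 10 lower with a median of 0.15, and 6 higher after centring. At an unadjusted p under 0.05 in limma 1 was higher and 2 lower, beside 8.86% and 3.38% of all circRNAs. The higher one, Rbms1, encodes a single-stranded nucleic acid binding protein and is named after its values were seen. Its exons 3 to 6 (chr2:60779731-60797742) gave a circle at 0, 0 and 0.102 CPM in Control and at 0, 0.683 and 1.45 CPM in Cirrhosis (1.77 ± 0.69, limma adjusted p = 0.234). Hnrnpu encodes a nuclear RNA-binding protein that organises chromatin and splicing. The circRNA of exons 4 to 6 (chr1:178323134-178325313, coding and 3' UTR) was at 1.43, 1.76 and 2.37 CPM in Control and at 0, 0.559 and 2.95 CPM in Cirrhosis. Cirrhosis 6 lay above every Control library and the other 5 lay below every one. In log2, Cirrhosis minus Control was -1.78 ± 0.68 (limma adjusted p = 0.234), or -2.36 after centring with an adjusted limma p of 0.0485. The Cirrhosis mean was 0.879 CPM, or 0.465 CPM without Cirrhosis 6. Pabpn1 encodes the nuclear poly(A)-binding protein. Its circle of exon 6 (chr14:54897121-54897272) was at 0.192, 1.04 and 1.48 CPM in Control and at 0 in 4 of 6 Cirrhosis libraries (-1.8 ± 0.71, limma adjusted p = 0.236), and the gene Gm20521 overlaps it. Tent4a, a poly(A) polymerase gene outside the list (exons 2 to 4, chr13:69512890-69515903), was at 0, 0.532 and 1.97 CPM in Control and at 1.04, 1.63 and 6.04 CPM in Cirrhosis (1.79 ± 0.67, limma adjusted p = 0.229).

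**Figure D3:**
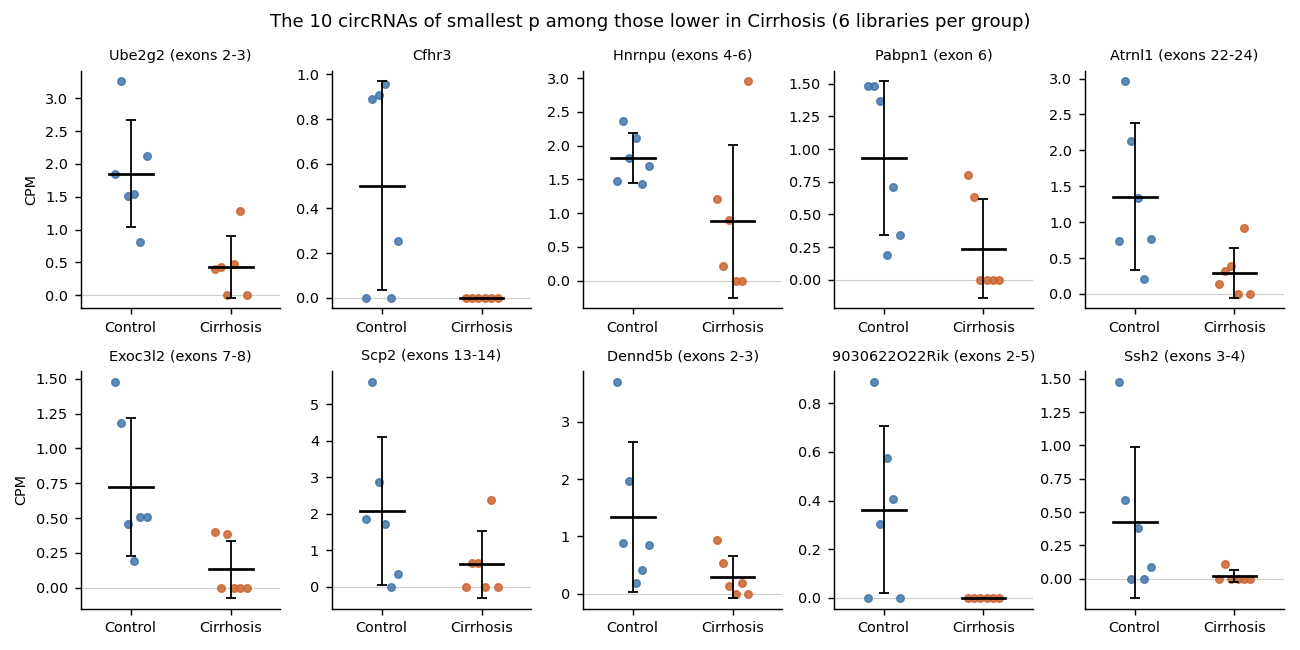
CPM of the 10 circRNAs of smallest p among those lower in Cirrhosis, drawn as for the higher ones with 1 point per library, the mean and the SD (n = 6 per group). Cfhr3 and 9030622O22Rik are at 0 in all 6 Cirrhosis libraries, and for Hnrnpu Cirrhosis 6 lies above the whole Control range.

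A pair of circRNAs had 0 reads in Cirrhosis and a read in 3 or more Control libraries (2 of 474, 0.422%). That of Cfhr3, of the complement factor H-related family (chr1:139593754-139597732, ends not at exons of 1 transcript), had 17 reads in 4 Control libraries, at 0, 0.571 and 0.959 CPM. With 3 reads in all Cirrhosis libraries together as the limit, it was at least 5.69-fold lower, or 4.34-fold without Cirrhosis 2 (limma adjusted p = 0.229). GENCODE M21 calls this locus an unprocessed pseudogene of a family of near-identical genes, so its reads could belong to a relative. The long non-coding RNA 9030622O22Rik (exons 2 to 5, chr2:147962032-147973014) had 12 reads in 4 Control libraries and was at least 4.02-fold lower, or 3.06-fold without Cirrhosis 2 (limma adjusted p = 0.313). The table lists circRNAs above 0 in at least 9 of 18 libraries, so a circRNA absent from 1 group had to be read in Cirrhosis-PTH to be listed.

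A further 2 of the 15 higher circRNAs belonged to no list. Ubl5, a ubiquitin-like modifier gene of splicing (exons 3 and 4, chr9:20645406-20645659), was at 0, 0.255 and 0.959 CPM in Control and at 0.647, 1.19 and 2.55 CPM in Cirrhosis (1.98 ± 0.72, limma adjusted p = 0.222). Msrb3, a methionine sulfoxide reductase gene that repairs oxidised proteins (exons 3 to 5, chr10:120825108-120852092), was at 0, 0.374 and 1.53 CPM in Control and at 0.848, 2.03 and 2.95 CPM in Cirrhosis (1.87 ± 0.68, limma adjusted p = 0.222). In both, all 6 Cirrhosis libraries lay above the Control mean and the groups overlapped. Over the whole profile, 22 circRNAs (4.64%) had 6 of 6 Cirrhosis libraries above the Control mean and 35 (7.38%) had 6 of 6 below it. Of the 42 higher at an unadjusted p under 0.05, 17 had 6 of 6 above and 20 kept that p in limma with each of the 12 libraries left out in turn. Of the 16 lower, 12 had 6 of 6 below and 6 kept it.

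The lists of xenobiotic, carbohydrate and plasma protein genes held 0 circRNAs with an unadjusted p under 0.05 in limma, among 12, 7 and 5 measured, beside 12.2% of all circRNAs. Of 12 circRNAs from xenobiotic metabolism and bile transport genes, 5 were higher and 7 lower with a median of -0.36, and after centring 0 were higher. Cyp3a25, a drug-metabolising cytochrome P450 gene of a multigene family (exons 2 to 4), was at -0.66 ± 0.73. Abcc2, the canalicular exporter gene (exons 5 and 6), was at 0.42 ± 0.71 as deposited and -0.15 after centring. Its circle of exons 12 to 16 was at -0.26 ± 0.73 as deposited. Of 7 circRNAs from carbohydrate and energy genes, 4 were higher and 3 lower with a median of 0.1, and 1 was higher after centring. Ogdh, of the citric acid cycle, was at 1.73, 2.36 and 5.33 CPM in Control and at 0.848, 2.86 and 5.3 CPM in Cirrhosis (-0.22 ± 0.55). Of 5 circRNAs from plasma protein genes, 3 were higher and 2 lower with a median of 0.09, and 1 was higher after centring. Mug1, a murinoglobulin gene with near-identical relatives (exons 15 and 16), was lowest at -1.07 ± 0.7, with 6 of 6 Cirrhosis libraries below the Control mean. Another Mug1 circle (chr6:121874392-122063738) was at 0.22 ± 0.62.

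Amino acid genes differed among themselves. Of 8 circRNAs, 3 were higher (also after centring) and 5 lower, with a median of -0.31. Both at an unadjusted p under 0.05 came from Bckdhb, which encodes a subunit of the complex that commits branched-chain amino acids to breakdown. The circle of exons 4 to 8 was at 0.303, 1.25 and 2.69 CPM in Control and at 1.29, 2.65 and 6.09 CPM in Cirrhosis (1.21 ± 0.57, limma adjusted p = 0.381). That of exons 2 to 6 was at 0.204, 0.766 and 2.07 CPM in Control and at 0.548, 1.81 and 12.4 CPM in Cirrhosis (1.25 ± 0.61, limma adjusted p = 0.381). Cirrhosis 6 was the highest library for both. The unadjusted p in limma reached 0.123 for the former without Control 3 and was also above 0.05 without Cirrhosis 4, 5 or 6. For the latter it reached 0.227 without Cirrhosis 6, where the Cirrhosis mean was 1.7 in place of 3.48 CPM, and was also above 0.05 without Control 6, 7 or 8 or Cirrhosis 1 or 4. Cth, of cysteine synthesis, differed by -0.57 ± 0.69.

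**Figure D4:**
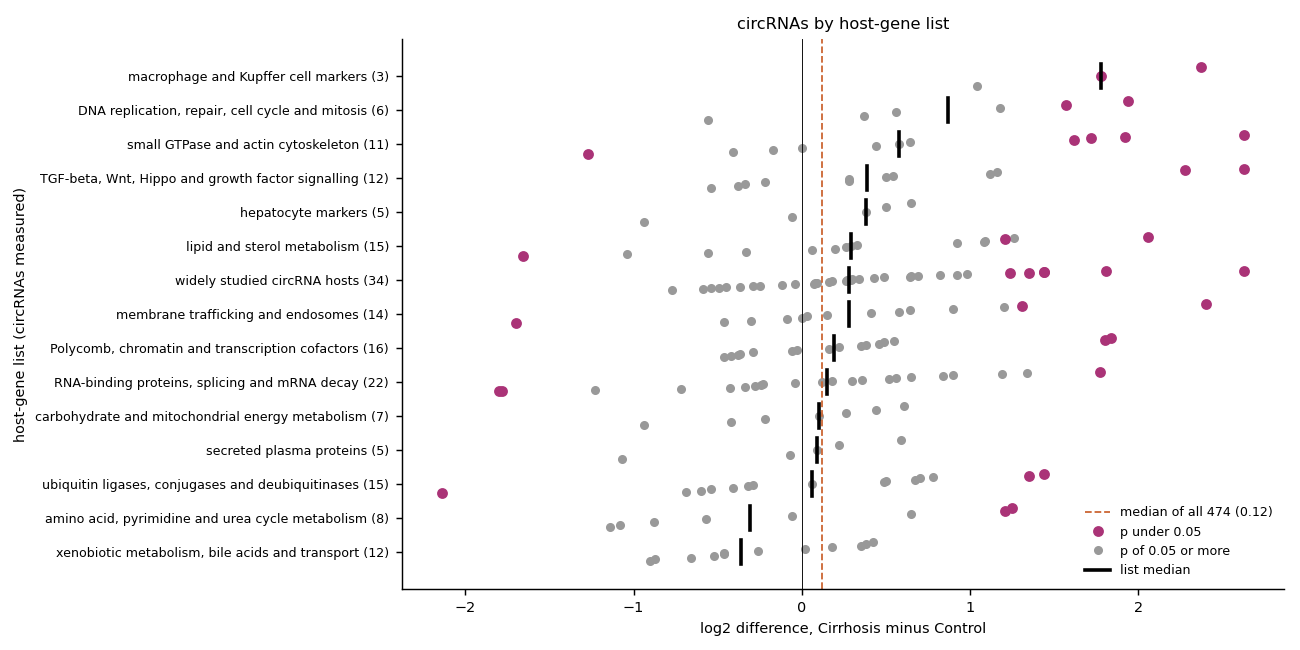
log2 difference (Cirrhosis minus Control, limma, as deposited) of each circRNA in the host-gene lists with 3 or more circRNAs, 1 point per circRNA, with the list median as a bar and the median of all 474 circRNAs, 0.12, as a dashed line. The macrophage list, with 3 circRNAs from 2 genes, has the highest median at 1.78 and the xenobiotic list the lowest at -0.36.

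The widely studied hosts of conserved circRNAs numbered 34 circRNAs, 24 higher and 10 lower with a median of 0.28, and 12 higher after centring. Of them 6 were higher at an unadjusted p under 0.05, among them Rock1 and Pvt1, and 0 were lower, beside 8.86% and 3.38% of all circRNAs. Psd3 had 3 circles between -0.25 ± 0.73 and 0.34 ± 0.72. Erbin, whose protein sits at cell junctions, was at 0.739, 2.05 and 4.44 CPM in Control and at 1.93, 3.81 and 7.12 CPM in Cirrhosis (exons 2 to 4, chr13:103884143-103889285, 0.98 ± 0.51). Its unadjusted limma p was 0.057 and its adjusted p 0.439, and 5 of 6 Cirrhosis libraries lay above the Control mean.

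Apart from Eed and Pvt1, the 10 most abundant circRNAs had unadjusted limma p values of 0.057 or more. Rmdn2 (exons 3 to 5, chr17:79650302-79659473), a regulator of microtubule dynamics gene, had the highest mean over the 12 libraries, at 3.65, 6.4 and 12.7 CPM in Control and at 3.75, 8.54 and 12.3 CPM in Cirrhosis. The groups covered the same range, and the log2 difference was 0.16, with a 95% interval of -0.61 to 0.93, the only interval of the 474 that lay within 1 of 0. Ube3a (exons 2 to 4, chr7:59240967-59247217), a ubiquitin ligase gene, was at 1.73, 5.71 and 8.58 CPM in Control and at 4.35, 6.56 and 10.9 CPM in Cirrhosis, with a log2 difference of 0.49 and an interval of -0.27 to 1.26. Gramd1c (exons 3 to 6, chr16:44028679-44040158), a sterol transport gene, was at 2.88, 4.43 and 6.01 CPM and at 2.86, 5.2 and 9.41 CPM, with 0.33 and an interval of -0.47 to 1.14. Tmem56 (exons 2 to 6, chr3:121228310-121235764) was at 1.73, 3.59 and 5.92 CPM in Control and at 0.129, 3.64 and 6.94 CPM in Cirrhosis, where Cirrhosis 3 held the low value. Alg12 (exons 6 and 7), a glycosyltransferase gene, differed by -0.05 ± 0.5. After centring, the sign of Rmdn2, Ube3a and Gramd1c was negative (-0.42, -0.08 and -0.24).

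The errors were wide beside the differences. The median SE of a log2 difference was 0.694 and the median half-width of its 95% interval 1.36. The interval lay within 2 of 0 for 274 circRNAs (57.8%), on the scale of log2(CPM + 0.143). For the others a difference of 4-fold was not shut out in at least 1 direction. Within the 274, those of few reads could still differ by more than 4-fold in CPM, because the pseudocount makes their differences too small. A difference of more than 1 was fitted for 74 higher and 37 lower circRNAs, and 53 of these 111 had an unadjusted p of 0.05 or more. Among the 38 circRNAs detected in all 12 libraries, the median coefficient of variation was 60.9% in Control and 59.3% in Cirrhosis. By mean CPM, the 158 lowest held 5 higher and 3 lower circRNAs at an unadjusted p under 0.05 and the 158 highest 24 and 11, with median differences of -0.04 and 0.34.

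Hosts with several circRNAs allowed circles of 1 gene to be set side by side. There were 49 such hosts with 107 circRNAs. In 28 all circles had the same sign (13 higher, 15 lower) and in 21 the signs differed. Those of Adgre1, Arhgap10 and Bckdhb were higher together, while Snx5 and Rasa2 had 1 circle that stood out. The second circles of Snx5, Rasa2, Cfhr3, Atrnl1 and Atxn2, and those of Pik3c2a, were named after their values were seen. Summed per host, 0 of 416 (0%) passed limma at an adjusted p under 0.05, with 52 (12.5%) unadjusted. The smallest adjusted p values were 0.0736 for Rock1 and 0.118 for Eed and Adgre1.

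The Snx5 circles gave the largest contrast. That of exons 8 and 9 was at 0, 0.261 and 0.888 CPM in Control and at 0, 0.053 and 0.731 CPM in Cirrhosis, while that of exons 6 to 9 stood higher in Cirrhosis. The longer circle took 6 of 15 Snx5 reads in Control (40%) and 50 of 59 in Cirrhosis (84.7%), pooled over libraries. The log2 ratio of the shorter to the longer differed by -2.85 ± 0.84, with a limma p of 0.00128 and an adjusted p of 0.087 over 68 pairs, of which 0 (0%) passed and 5 (7.35%) were under 0.05 unadjusted. The other 4 were Pik3c2a, Arhgap32, Rasa2 and Atxn2, whose limma adjusted p was 0.575 in each case. In Pik3c2a, a lipid kinase gene, the circle of exons 5 to 8 was at 1.36 ± 0.73 and that of exons 20 and 21 at -0.73 ± 0.73, and their ratio differed by -2.1 ± 0.93 (limma unadjusted p = 0.0275). In Arhgap32 the ratio of the circle of exons 3 and 4 to that of exons 6 to 9 differed by 1.97 ± 0.89 (limma unadjusted p = 0.0317). The test of ratios was added after the data were seen, and with a pseudocount of 1 CPM or without Control 8 it called 1 pair. Because both Snx5 circles end at exon 9, they differ in the exon at which the circle starts.

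The Rasa2 circles share their start and differ in their end. That of exons 2 to 5 was at 0.296, 0.482 and 1.73 CPM in Control and at 0.242, 1.18 and 1.84 CPM in Cirrhosis (0.54 ± 0.71), so the groups overlapped throughout. The circle of exons 2 to 4 took 27 of 52 Rasa2 reads in Control (51.9%) and 107 of 153 in Cirrhosis (69.9%). Its ratio to the other differed with a limma p of 0.043 and an adjusted p of 0.575. The Atrnl1 circles, of a gene related to attractin, share exon 22 as their start. That of exons 22 to 24 was at 0.204, 1.05 and 2.96 CPM in Control and at 0, 0.226 and 0.913 CPM in Cirrhosis (-1.83 ± 0.72, limma adjusted p = 0.238), and that of exons 22 to 25 differed by -0.44 ± 0.64. Both Cfhr3 circles share an end by position, and the larger one had 24 reads in Control and 25 in Cirrhosis (-0.02 ± 0.73), where the smaller had 0. In Atxn2, an RNA-binding protein gene, the circle of exons 19 and 20 was at -1.61 ± 0.72 and that of exons 2 to 5 at 0.36 ± 0.72 (limma p of their ratio 0.0435, adjusted 0.575).

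**Figure D5:**
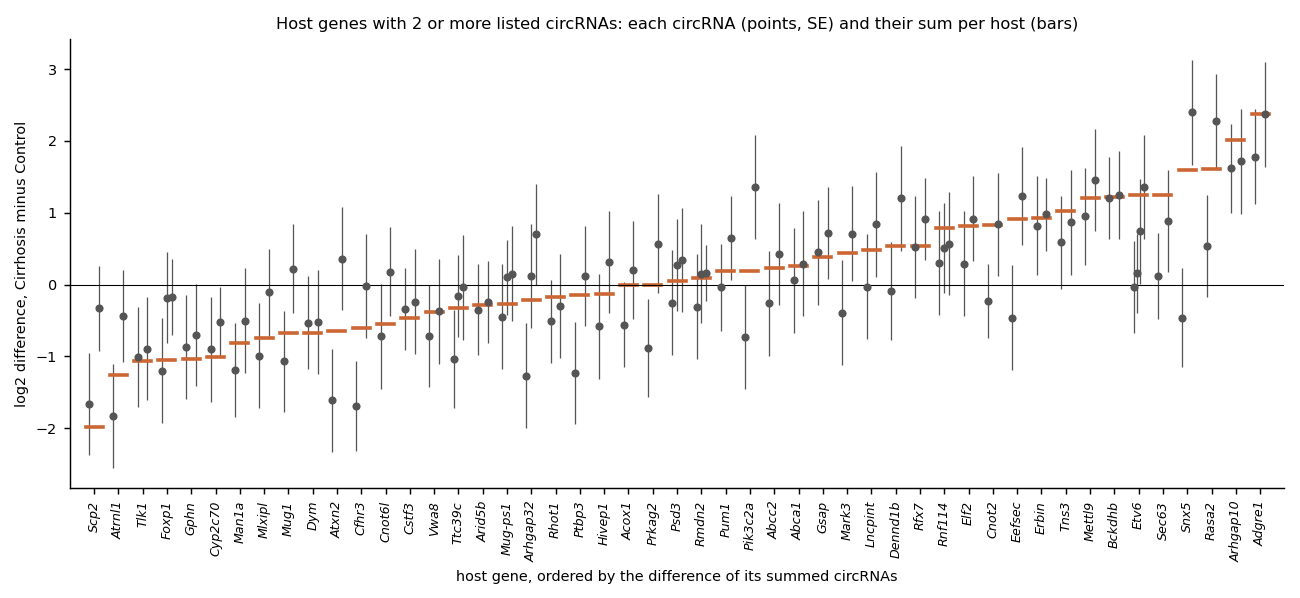
log2 difference (Cirrhosis minus Control, limma) of every circRNA of the 49 hosts with 2 or more (points, with SE) and of their summed CPM per host (bars), ordered by the sum. Adgre1, Arhgap10, Rasa2 and Snx5 lie at the high end and Scp2 and Atrnl1 at the low end, and the circles of Snx5 lie farthest apart.

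Hosts with 3 or more circles held none with an unadjusted p under 0.05. Etv6, a transcriptional repressor gene, had 4, from -0.03 ± 0.64 to 1.36 ± 0.73, and its highest, at chr6:134115220-134137417, had 6 of 6 Cirrhosis libraries above the Control mean. Foxp1, a transcription factor gene, had 3, all lower (-0.17 ± 0.53, -0.18 ± 0.64 and -1.2 ± 0.73). Ttc39c had 3, at -0.04 ± 0.73, -0.16 ± 0.57 and -1.04 ± 0.68, and Rnf114, a ubiquitin ligase gene, had 3 at 0.3 ± 0.73, 0.51 ± 0.63 and 0.57 ± 0.72 as deposited, below 0 after centring. The Arhgap32 circles were at -1.27 ± 0.73, 0.12 ± 0.73 and 0.7 ± 0.7, and those of Rmdn2 at -0.31 ± 0.73, 0.15 ± 0.69 and 0.16 ± 0.39. After centring, 1 of the 3 Arhgap32 circles and 0 of the 3 Rmdn2 circles stayed above 0. Each of these differences lay within 2 SE of 0 as deposited.

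Structure went with small shifts in the differences. Circles of 1 exon had a median log2 difference of 0.28 (18 circRNAs), of 2 exons 0.07 (192), of 3 exons 0.3 (119) and of 4 or more 0.1 (106). The 158 shortest by genomic span had a median of 0.28 with 62.0% higher, and the 158 longest 0.0 with 51.3% higher. Circles that start at exon 2 had a median of 0.11 (170) and those that start later 0.14 (264). Circles of coding exons alone had a median of 0.11 (361) and those with 5' UTR and coding sequence 0.31 (56). Across circRNAs, Spearman's rank correlation of the log2 difference was 0.15 with mean CPM, -0.07 with genomic span and -0.13 with GC content (n = 435 for the last). These describe circRNAs that share the same 12 libraries and are not independent replicates.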

How the data were processed

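RNA of whole mouse liver was extracted with TRIzol, depleted of ribosomal RNA and made into libraries with a NEBNext kit, per the labels' protocols. The deposited table gives CPM per circRNA and library, and the circRNAs were called with CIRI, per the file headers. The version of CIRI and the library total behind the CPM are not given in the sources used here. The submitters' processing notes name HISAT2 2.2.1, StringTie 2.1.5, cutadapt 4.2, Bowtie 1.3.1, Trim Galore and Bowtie2 and the build GRCm38, with no roles. Every circRNA of the table is above 0 in at least 9 of 18 libraries.

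Groups came from the labels. All 5886 values above 0 in the 18 libraries (100%) lay at a whole multiple of the CPM of 1 read in their library, within 0.01. The largest deviation was 0.0016. This gave back the reads and the total of each library, 2706146 to 11773972 in the 12 libraries compared. With 794 to 2384 back-splice reads per library the median value was 2 reads. Replicates of a group differed beyond counting noise (chi-square over degrees of freedom 2.11 to 5.85 for all pairs). The intervals of log2 differences rest on the limma SE and so include the spread between libraries. Limits for a count of 0 cover only the counting error of the group without reads. They include neither the spread between mice nor the error of the other group's reads.

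The main test was limma 3.58.1 with a trend on log2(CPM + 0.143), all 18 libraries in 1 model and the contrast Cirrhosis minus Control, with Benjamini-Hochberg adjustment over all circRNAs. The fits on recovered reads used edgeR 4.0.16 and DESeq2 1.42.0 (R 4.3.3). CPM sums per host were fitted with limma in the same way, and log2 ratios within hosts were fitted with limma without the trend. For depth and detection per library, the permutation tests were exact and 2-sided (SciPy 1.17.1). The fits across circRNAs were tested on simulated data. Alternatives were 3 other pseudocounts, 2 filters on low values, 2 other scalings, 12 libraries alone, no trend, a replicate block and leaving out each library. Chosen after seeing the data were the fit of the same title numbers without pairing, the fit without both Control 1 and Cirrhosis 6, and the test of ratios within hosts.

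The text names the 15 circRNAs of smallest p among the higher and 10 among the lower, those whose groups do not overlap or that are at 0 in 1 group, those called in an alternative, the 10 most abundant, up to 3 per list, all of hosts with 3 or more, and the 5 narrowest intervals around 0. Other names were chosen after their values were seen: Abcb11, Rbms1, Trim33, both circles of Pik3c2a, the second circles of Abcc2 and Mug1, and the second circles of hosts in the paired comparison. The circRNAs, host-gene lists and rules were chosen with earlier results of these data known. Junction sequences were joined from GENCODE M21 transcripts, and those on chromosome 18 were not used here. Some circRNAs are not reported here.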

Additional observations from a re-analysis of the deposited data

Results flagged for a closer look

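Groups of 6 libraries were tested over the named circRNAs and the 4 library measures. In 25 of 184 such groups, all of circRNAs, the highest library lay far from the other 5, with a gap over 0.625 of the group's range. For normally distributed values chance flags about 1 in 20 such groups, which would be 9.2 here. CPM of few reads are not so distributed, and a single read among zeros is always flagged. The 9.2 is therefore not the rate expected of these data, and an excess of flags was not tested. No lowest library did so. Cirrhosis 4 held 5 of these values, Control 2 and Cirrhosis 5 held 4 each, Control 1 and Cirrhosis 6 held 3 each, Control 3 and Control 6 held 2 each, and Cirrhosis 1 and Cirrhosis 2 held 1 each.

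In Cirrhosis 6 the values were 12.4 CPM for Bckdhb (exons 2 to 6), 6.64 CPM for Rock1 and 4.79 CPM for Ttc39c (chr18:12684837-12698059). Cirrhosis 4 held 6.04 CPM of Tent4a, 5.32 CPM of Med13l, 1.45 CPM each of Rnf114 (chr2:167510876-167511326) and Etv6 (chr6:134066307-134137417), and 0.725 CPM of Foxp1 (chr6:99435216-99456580). Cirrhosis 5 held 2.92 CPM of Etv6 (chr6:134115220-134137417), 2.37 CPM of Scp2, 1.64 CPM of Hc and 0.913 CPM of Pfkfb1. Cirrhosis 1 held 0.67 CPM of Ccdc122, and Cirrhosis 2 held 0.106 CPM of Ssh2, a single read where the other 5 libraries had 0.

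Among Control libraries, Control 2 held 7.1 CPM of Alg12, 2.07 CPM of Arhgap32 (chr9:32181842-32208265), 1.18 CPM of Foxp1 (chr6:99429210-99435345) and 0.888 CPM of Pfkfb1. Control 1 held 2.22 CPM of Gls2, 1.48 CPM of Arhgap32 (chr9:32151922-32153124) and 0.739 CPM of Rnf114. Control 3 held 2.58 CPM of Gbe1 and 0.152 CPM of Arhgap10, a single read, and Control 6 held 0.575 CPM each of Wac and Etv6 (chr6:134066307-134137417).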

How the results depend on the processing

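Depth limits the precision of each value, with a median of 2 reads. Of the 30 named circRNAs with an unadjusted p under 0.05, 0 changed sign in the 27 settings. Centring could not change their sign, because its shift of -0.58 was smaller in size than their differences. Of the other 58, 43 changed sign in at least 1 setting, 27 of them on centring and 11 on scaling to the listed circRNAs. The cause was not tested for any change given here. CircRNAs past an adjusted p of 0.05 numbered 0 of 474 in limma as reported, and 2 of the 178 with a mean of at least 0.5 CPM (Rasa2 and Rock1). They numbered 2 after centring (Ube2g2 and Hnrnpu), 1 with no trend (Rock1) and 1 in DESeq2 (Ube2g2). There was 1 without both Control 1 and Cirrhosis 6 (Adgre1), and 0 to 1 with each library left out (Rock1 without Control 3). Higher at an unadjusted p under 0.05 were 42 of 474 as reported, and 29 to 44 with each library left out. They were 10 after centring, 23 scaled to the listed circRNAs, 15 in edgeR with TMM and 16 in DESeq2. The filter on a mean of at least 0.5 CPM kept 178 circRNAs, of which 25 were higher. Lower were 16 of 474 as reported, and 12 to 21 with each library left out. They were 68 after centring, 26 scaled to the listed circRNAs and 9 in edgeR without TMM. Of the 271 circRNAs above 0 in at least 12 of all 18 libraries 10 were lower, and of the 178 with a mean of at least 0.5 CPM 8 were. The median log2 difference, 0.12, was -0.46 after centring, -0.06 scaled to the listed circRNAs, -0.09 in edgeR with TMM and -0.24 in DESeq2, and 0.04 to 0.2 with each library left out. The percent higher, 56.1, was 28.9 after centring and 43.7 in DESeq2, and 52.5 to 59.3 with each library left out. Scaled to the listed circRNAs, groups did not overlap for 4 of 474 higher (Ascc3, Snx5, Rasa2, Arhgap10) and 2 of 474 lower circRNAs, against 1 and 0 as deposited. The lower ones were Ube2g2 and a circRNA without a host gene (chr11:16687937-16699485). Hosts past an adjusted p of 0.05 were 3 with a pseudocount of 1 CPM (Adgre1, Pvt1 and Rock1) and 3 after centring (Hnrnpu, Scp2 and Ube2g2). With each library left out they were 0 to 1 (Rock1 without Control 3 or Cirrhosis 3, and Adgre1 without Cirrhosis 6). Pairs of 1 host were 1 with a pseudocount of 1 CPM and 0 to 1 with each library left out (without Control 8). Circles detected differed by -3, by 15.8 counted from 2 reads on, and by -19 to 17.4 with each library left out.

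The replicate block used the 4 title numbers shared by both groups. Deviations of same-numbered libraries correlated at 0.014 to 0.082, all above 0, and those of differently numbered ones at -0.118 to 0.076. The correlations were small and the ranges overlapped, so the numbers were not taken as pairs. These few values do not settle whether the numbers mark pairs. With the block 15 circRNAs were higher and 24 lower at an unadjusted p under 0.05, with a median of -0.14 and 46.2% higher, and the same libraries without the pairing term gave 16 and 25, with -0.14 and 46.2%.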
